A study of Mus musculus with 2 samples.

Results

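The Hox genes of the 4 mouse clusters were taken from the deposited tables by name: every gene symbol made of Hox, a cluster letter from a to d and a paralog number. This gave 39 genes of the 25668 listed, 11 in HoxA, 10 in HoxB, 9 in HoxC and 9 in HoxD. The libraries came from organoids of fallopian tube epithelium, the cell layer that lines the oviduct, and there was 1 per group. The first is labelled Mutated fallopian tube epithelial cells with the genotype Trp53 KO, which is loss of the gene for the tumour suppressor p53. The second is labelled as normal cells of the same kind with the genotype WT. Both carry the treatment label Conditioned medium, and the WT organoids came from a mouse line with a Cas9-EGFP transgene under the CAG promoter at the Rosa26 locus. Whether the Trp53 KO organoids are 1 clone, and from how many mice each library was made, could not be read from the labels. The comparison asks which Hox genes differ between the Trp53 KO library and the WT library, and with 1 library in each group no difference has a replicate check.

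Hox genes encode homeodomain transcription factors that give cells their position along the body axis. They lie in clusters, numbered by paralog from the 3' end to the 5' end, and low numbers are used towards the head and high numbers towards the tail. In the developing female reproductive tract of the mouse, genes at the 5' end of HoxA mark successive segments, with Hoxa9 in the oviduct, Hoxa10 in the uterus, Hoxa11 in the uterus and cervix and Hoxa13 in the vagina. Many Hox proteins bind DNA together with cofactors of the Pbx, Meis and Pknox families.

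Levels are in TPM, a unit in which reads are counted per length of transcript and every library has an equal total, so that genes can be compared with each other. Reads recovered from the TPM values summed to 30112363 in the Trp53 KO library and 109176553 in the WT library. A 95% counting interval of a TPM ratio, Trp53 KO over WT, was taken from these reads. It covers counting error only, and fewer cells of a type cannot be told apart from less RNA per cell. The targeted gene Trp53 was 2.42 TPM in the Trp53 KO library, against 83.2 TPM in the WT library. Epithelial markers were high in both libraries: the 6 listed summed to 14124 TPM in the Trp53 KO library and 9275 TPM in the WT library. Krt19 was at least 2-fold higher, at 8176 and 2313 TPM in the same order, and the others were within 2-fold. Epcam, an epithelial adhesion molecule, was 697 and 713 TPM. Pax8, a transcription factor of oviduct secretory cells, was 46.0 TPM in the Trp53 KO library and 44.8 TPM in the WT library. The other 3 secretory markers were at least 2-fold lower, and Ovgp1, the oviduct glycoprotein, was 0.192 TPM in the Trp53 KO library and 7.44 TPM in the WT library. The libraries differed in other cell type markers: 5 basal or squamous genes summed to 3005 TPM in the Trp53 KO library and 4.70 TPM in the WT library, all 5 at least 2-fold higher. The 6 multiciliated cell genes summed to 53.1 and 169 TPM, with 5 at least 2-fold lower. Foxj1 made most of both sums, at 52.7 TPM in the Trp53 KO library and 116 TPM in the WT library. Ccno was 0.181 and 27.4 TPM in the same order, Cfap52 was 0.171 and 10.7 TPM, and Mcidas was 0.0476 and 2.35 TPM. Dnah5 and Tppp3 were listed at 0 in the Trp53 KO library and at 0.0720 and 12.3 TPM in the WT library. Of 7 fibroblast genes all were listed at 0 in the Trp53 KO library, and they summed to 0.0974 TPM in the WT library, where Col1a2 was at 0. The 5 immune genes summed to 0.431 TPM in the Trp53 KO library and 266 TPM in the WT library. Lyz2, a lysozyme, was at 0 in the Trp53 KO library and made 257 TPM in the WT library. Csf1r was 0.420 and 8.78 TPM in the same order, and both genes were at least 2-fold lower. Ptprc, the pan-leukocyte gene, was 0.0110 and 0.0886 TPM, Adgre1 was 0 and 0.0363 TPM, and Cd3e was at 0 in both. Smooth muscle genes summed to 18.0 TPM in the Trp53 KO library, nearly all Acta2, and 1.62 TPM in the WT library. Mesothelial genes summed to 233 and 244 TPM in the same order, nearly all Msln, while Upk3b was 1.41 and 1.27 TPM and Lrrn4 was 0.0304 and 0.0136 TPM. Endothelial genes summed to 0.0269 and 0.0829 TPM. The part of these markers in the Hox values was not tested.

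HoxB made up most Hox RNA in both libraries, and HoxD, the second cluster of the WT library, was listed at 0 throughout the Trp53 KO library. Summed over all 39 genes, Hox levels were 302 TPM in the Trp53 KO library and 205 TPM in the WT library. HoxB gave 301 TPM, or 99.7% of the Hox total, in the Trp53 KO library, against 177 TPM, or 86.5%, in the WT library. HoxD gave 0 TPM in the Trp53 KO library and 26.4 TPM, or 12.9%, in the WT library. HoxC was 0.0440 TPM in the Trp53 KO library and 1.13 TPM in the WT library, and HoxA was 1.01 and 0.0485 TPM, so the small HoxA and HoxC sums lay in opposite directions.

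Of the 39 genes, 11 reached 1 TPM in at least 1 library. A further 9 were above 0 in at least 1 library but below 1 TPM in both, and 19 were listed at 0 in both. For these 19 genes 3 reads would have given at most 0.194 TPM in the Trp53 KO library and 0.0577 TPM in the WT library. Genes with a mean of at least 1 TPM were called higher or lower at a 2-fold difference on the log2(TPM + 1) scale, which makes changes of low genes smaller. By this rule 8 Hox genes could be called, 7 of them in HoxB, and 31 could not. Hoxb7 and Hoxb8 were higher and Hoxd8 was lower in the Trp53 KO library. Over all 11228 genes with such a mean, 8.35% (937 genes) were higher and 15.3% (1715 genes) were lower. After quantile normalization, which moved the median of all genes from its deposited value of -0.17 to 0.03 on this scale, 1292 genes were higher and 1321 were lower. Hoxd8 reached the mean through the WT library alone, so its call follows from its level there. The filter fell in a gap, with Hoxb5 just inside at a mean of 4.92 TPM and Hoxd4 just outside at 0.794 TPM.

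**Figure D1:**
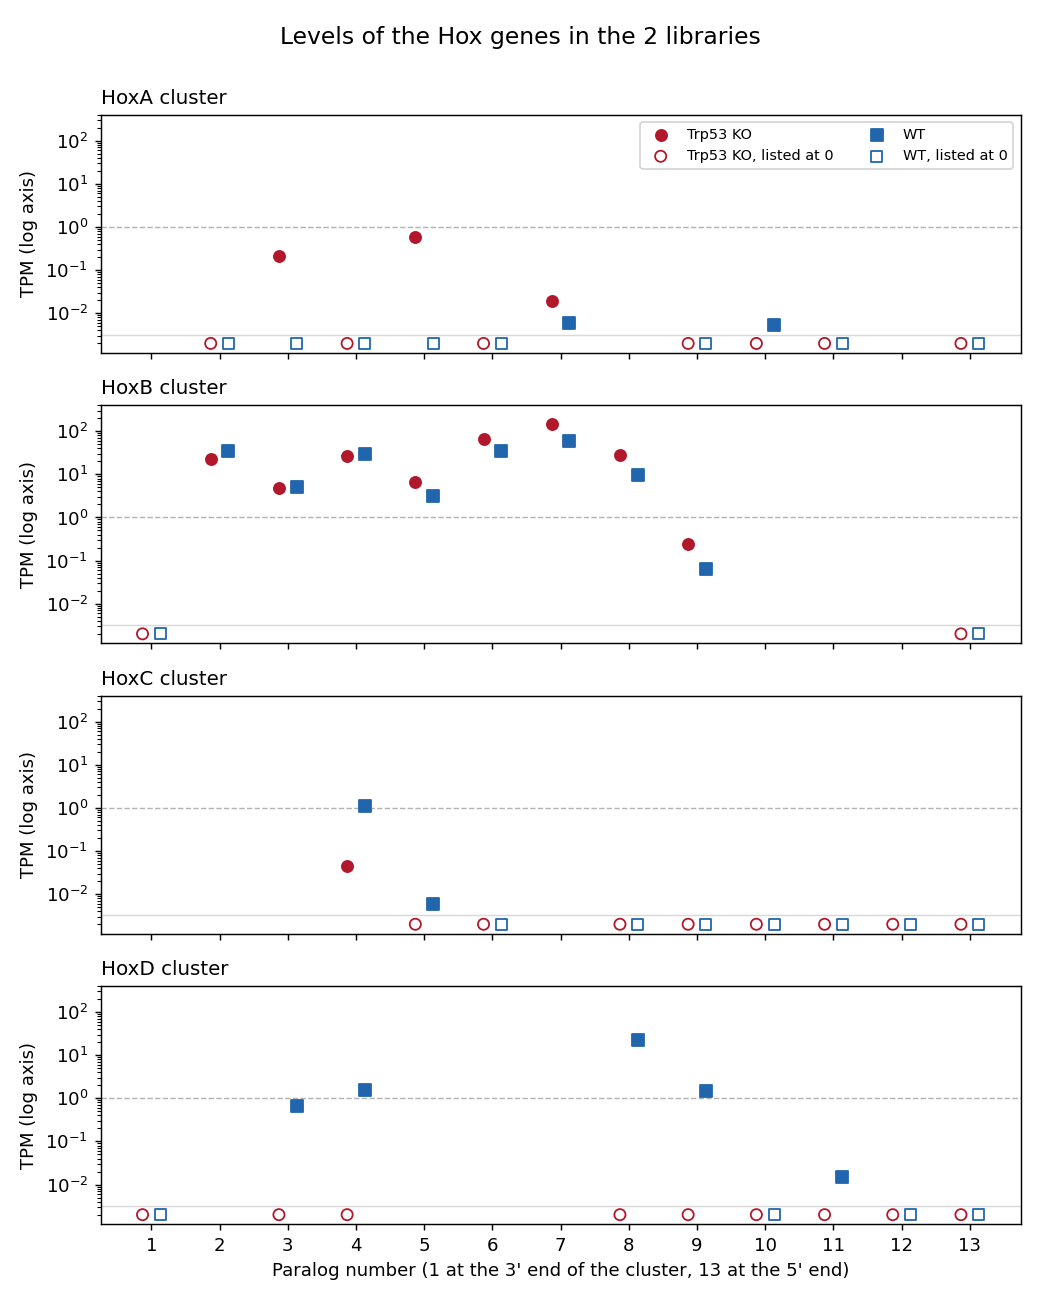
Level of the Hox genes reported here (TPM, log axis) by paralog number, a panel per cluster, with a circle for the Trp53 KO library and a square for the WT library; open marks below the grey line are genes listed at 0, and the dashed line is 1 TPM. HoxB genes 2 to 8 lie above 1 TPM in both libraries, while every HoxD gene is an open circle in the Trp53 KO library.

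All 9 HoxD genes were listed at 0 in the Trp53 KO library, and 4 of them held nearly all the HoxD reads of the WT library. HoxD genes are best known for patterning limbs, vertebrae and the posterior trunk. Hoxd8, a trunk gene of the middle of the cluster, was at 0 in the Trp53 KO library and at 22.7 TPM from 3700 reads in the WT library, where it ranked 5 among the Hox genes and made 85.7% of the HoxD sum. It was 367-fold lower in the Trp53 KO library, taking 3 reads in that library as the floor, and at least 298-fold lower by the counting interval. At its WT level the depth of the Trp53 KO library would have given 1099.5 reads.

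The other 3 HoxD genes with more than a single read were low in the WT library. Hoxd4, which shapes neck vertebrae, was listed at 0 in the Trp53 KO library. In the WT library it was 1.59 TPM from 242 reads. It was 23.97-fold lower against the floor of 3 reads, and its ratio was at most 0.0517 by the counting interval. Hoxd9, a gene of the lower trunk and limb, was at 0 in the Trp53 KO library. In the WT library it was 1.49 TPM from 190 reads. It was 18.8-fold lower against this floor, with a ratio of at most 0.0660 by the interval. Hoxd3, which shapes the atlas and axis of the neck, was at 0 in the Trp53 KO library. In the WT library it was 0.673 TPM from 157 reads. It was 15.6-fold lower against this floor, with a ratio of at most 0.0800 by the interval. At their WT levels the Trp53 KO library would have given 71.9 reads of Hoxd4, 56.5 of Hoxd9 and 46.7 of Hoxd3. Hoxd11 had 0 reads in the Trp53 KO library and 1 read in the WT library, and Hoxd1, Hoxd10, Hoxd12 and Hoxd13 had none in either, so these 5 cannot be compared at this depth. Hoxd3 and Hoxd4 overlap in the annotation, and with the strand setting of the counting not given, reads of overlapping and antisense transcripts in the clusters cannot be told apart.

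The bases before the RefSeq start sites of these 4 HoxD genes are printed with those of Hoxb8 and Hoxb4. Both are HoxB genes with a RefSeq window and with reads in both libraries. Promoters of genes listed at 0 in the Trp53 KO library can thus be read beside promoters of genes that were not. Each is 250 bases, 5' to 3' on the plus strand of GRCm38.p6, ending at the base before the start site. The places are chr2:74704365-74704614 for Hoxd8, chr2:74697513-74697762 for Hoxd9, chr2:74721728-74721977 for Hoxd4 and chr2:74711743-74711992 for Hoxd3. For the HoxB genes they are chr11:96281655-96281904 for Hoxb8 and chr11:96318017-96318266 for Hoxb4. The Hoxd3 window lies before that of Hoxd4 because it belongs to the start of a long Hoxd3 transcript. Capitals mark, on either strand, the homeodomain core TAAT, the Pbx-Hox motif TGATNNAT, the CCAAT box and the TATA box TATAAA, or their reverse complements.
Hoxd8: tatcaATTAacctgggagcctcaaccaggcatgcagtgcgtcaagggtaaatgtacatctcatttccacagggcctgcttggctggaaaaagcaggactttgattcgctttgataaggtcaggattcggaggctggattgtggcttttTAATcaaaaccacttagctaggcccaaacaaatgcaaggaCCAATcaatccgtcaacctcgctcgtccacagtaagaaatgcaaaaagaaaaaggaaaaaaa
Hoxd9: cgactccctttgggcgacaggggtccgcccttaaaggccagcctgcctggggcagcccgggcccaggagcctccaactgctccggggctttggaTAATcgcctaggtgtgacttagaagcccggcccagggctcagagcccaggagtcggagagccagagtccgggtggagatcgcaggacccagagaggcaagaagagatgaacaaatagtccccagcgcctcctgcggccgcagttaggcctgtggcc
Hoxd4: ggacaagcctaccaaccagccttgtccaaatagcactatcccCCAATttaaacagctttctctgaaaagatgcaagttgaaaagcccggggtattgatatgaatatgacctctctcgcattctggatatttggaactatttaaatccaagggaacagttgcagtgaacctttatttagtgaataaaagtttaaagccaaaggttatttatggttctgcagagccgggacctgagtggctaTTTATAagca
Hoxd3: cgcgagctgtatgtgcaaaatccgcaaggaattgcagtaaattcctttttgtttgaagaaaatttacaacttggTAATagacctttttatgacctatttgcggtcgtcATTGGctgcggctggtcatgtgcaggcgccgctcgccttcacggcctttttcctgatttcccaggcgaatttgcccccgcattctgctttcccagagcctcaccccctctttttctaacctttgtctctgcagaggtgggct
Hoxb8: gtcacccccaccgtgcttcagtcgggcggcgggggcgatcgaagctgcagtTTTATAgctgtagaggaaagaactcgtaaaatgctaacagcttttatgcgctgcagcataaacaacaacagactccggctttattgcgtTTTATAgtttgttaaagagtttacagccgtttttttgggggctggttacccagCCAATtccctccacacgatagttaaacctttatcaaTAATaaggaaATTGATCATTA
Hoxb4: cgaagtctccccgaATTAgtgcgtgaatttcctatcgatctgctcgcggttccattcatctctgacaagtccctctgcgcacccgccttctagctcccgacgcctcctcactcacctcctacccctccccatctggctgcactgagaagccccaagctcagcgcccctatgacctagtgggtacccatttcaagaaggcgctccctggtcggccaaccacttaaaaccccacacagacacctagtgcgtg
TAAT stood in 5 of the 6 windows, all but Hoxd4, and in 48.9% of 20556 windows of the same length from 16885 genes of the tables. CCAAT stood in the windows of Hoxd3, Hoxd4, Hoxd8 and Hoxb8, against 35.2% of all windows. TATAAA was found once in Hoxd4 and in 2 places in Hoxb8, against 11.4% of all windows, and TGATNNAT was found in Hoxb8, where it overlaps a TAAT, against 6.62%. A p53 half-site, by its consensus of 10 bases, was found in Hoxd4 and in 6.27% of all windows. CpG pairs numbered 6 in Hoxd8, 13 in Hoxd9, 3 in Hoxd4 and 12 in Hoxd3, and 12 in Hoxb8 and 14 in Hoxb4, with a median of 10 over all windows. RefSeq windows were at hand for 22 of the 39 Hox genes, 24 windows with those printed among them. Of these 24 windows, 75% held TAAT, 58.3% CCAAT, 16.7% TATAAA, 16.7% TGATNNAT and 12.5% a p53 half-site. Such matches describe letters in these windows and are not evidence of binding.

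Genes on either side of HoxD had reads in both libraries. Evx2, the homeobox gene next to Hoxd13, was listed at 0 in both. Beyond it, Lnpk, a protein of the endoplasmic reticulum, was 13.5 TPM in the Trp53 KO library and 7.11 TPM in the WT library, and Mtx2, a mitochondrial outer membrane protein on the other side, was 72.9 and 66.2 TPM. Atp5g3, an ATP synthase subunit, was 2179 TPM in the Trp53 KO library and 1629 TPM in the WT library. Of the 5 non-homeobox neighbours of HoxD on the list, only Chn1, a regulator of Rac signalling, was at least 2-fold lower. It was 0.0906 TPM in the Trp53 KO library and 7.07 TPM in the WT library, and it passed the filter through the WT library alone. Genes of chromosome 2 as a whole, without HoxD, had a median difference of 0.20 on the log2(TPM + 1) scale over 894 genes, with 12% higher and 10.2% lower, while the median over all measured genes was -0.17.

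**Figure D2:**
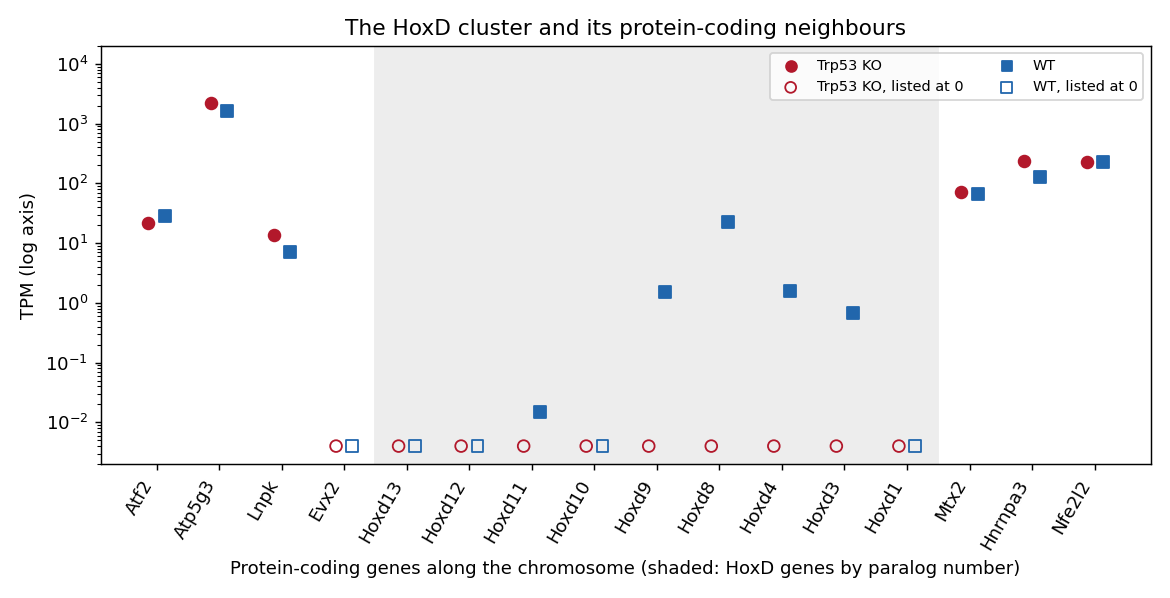
Level (TPM, log axis) of the HoxD genes, shaded and ordered by paralog number, and of the nearest protein-coding genes in the tables on each side, with a circle for the Trp53 KO library and a square for the WT library and open marks for genes listed at 0. The 9 HoxD genes are all open circles, while Lnpk at 13.5 TPM and Mtx2 at 72.9 TPM are present in the Trp53 KO library.

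In HoxB the ratio between the libraries changed along the cluster: genes 5 to 8 had higher levels in the Trp53 KO library, by ratios of 1.91 to 3.02, while the ratios of genes 2 to 4 were 0.659 to 0.923. HoxB genes pattern the hindbrain, the neck and thorax, and several act in blood stem cells. Hoxb7, the highest Hox gene in both libraries, was 143 TPM in the Trp53 KO library and 59.9 TPM in the WT library, a ratio of 2.39 (counting interval 2.29 to 2.50). It stood above 96.4% of all listed genes in the Trp53 KO library and above 91.9% in the WT library. Hoxb8, which acts in the spinal cord and in progenitors of myeloid cells, was 28.7 TPM in the Trp53 KO library and 9.52 TPM in the WT library, a ratio of 3.02 (2.80 to 3.25).

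The next genes towards the 3' end had smaller ratios. Hoxb6, a gene of the lateral plate and of blood progenitors, was 67.7 TPM in the Trp53 KO library and 35.4 TPM in the WT library, a ratio of 1.91 (1.82 to 2.01). Hoxb5, a marker of blood stem cells in the mouse, was 6.62 and 3.23 TPM in the same order, a ratio of 2.05 (1.73 to 2.43). Neither was called at 2-fold on the log2(TPM + 1) scale, on which they differed by 0.91 and 0.85. Both passed 2-fold on that scale after rescaling by the median ratio and after quantile normalization, and Hoxb5 also with a pseudocount of 0.1.

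The 3' genes had ratios below 1. Hoxb4, known for expanding blood stem cells, was 26.9 TPM in the Trp53 KO library and 29.3 TPM in the WT library, a ratio of 0.919 (0.862 to 0.979). Hoxb3, a hindbrain gene, was 4.81 TPM in the Trp53 KO library and 5.21 TPM in the WT library, a ratio of 0.923 (0.815 to 1.04). Hoxb2, which acts in rhombomeres of the hindbrain, was 22.7 TPM in the Trp53 KO library and 34.4 TPM in the WT library, a ratio of 0.659 (0.605 to 0.717). The small differences of Hoxb3 and Hoxb4 depended on the scaling: on the log2(TPM + 1) scale they were -0.10 and -0.12 as deposited, and both were 0.05 after rescaling by the median ratio, while after quantile normalization Hoxb3 was 0.20 and Hoxb4 was -0.0038. Hoxb2 was -0.58 as deposited and stayed below 0 under both scalings.

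At the 5' end Hoxb9, a gene of the thorax, was low in both, at 0.242 TPM from 11 reads in the Trp53 KO library and 0.0653 TPM from 10 reads in the WT library, a ratio of 3.70 (1.43 to 9.72). Hoxb1 and Hoxb13, at the ends of the cluster, were listed at 0 in both. Across the 8 genes from Hoxb2 to Hoxb9, which share the libraries and the chromosome, Spearman's rho between paralog number and ratio was 0.952, and it was 0.929 over the 7 genes without Hoxb9. Spearman's rho between the WT level and the ratio was -0.357 over the same 8 genes. Summed over genes 5 to 8, a split made after the values were seen, levels were 246 TPM in the Trp53 KO library and 108 TPM in the WT library, and over genes 2 to 4 they were 54.4 and 68.9 TPM. Hoxb7 was 6.32 times Hoxb2 in the Trp53 KO library and 1.74 times Hoxb2 in the WT library.

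**Figure D3:**
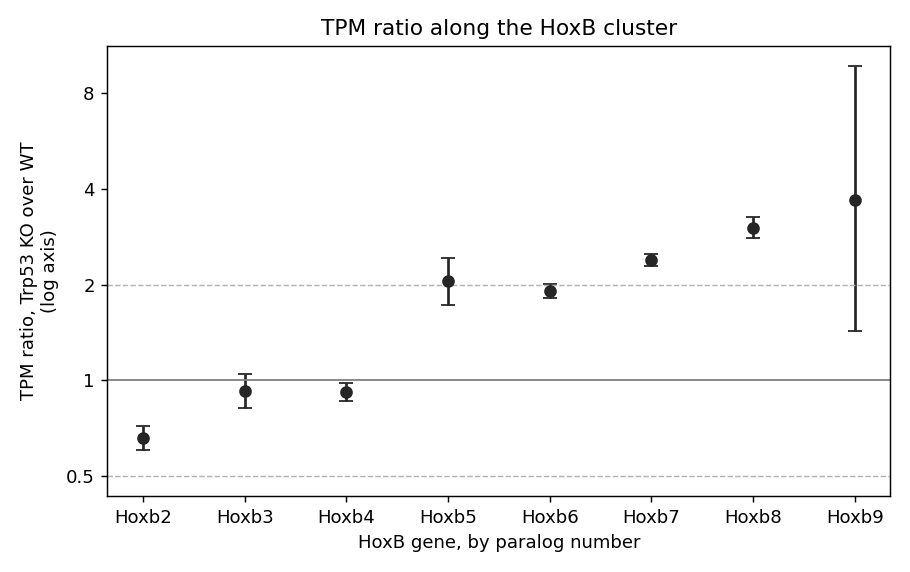
TPM ratio, Trp53 KO over WT (log axis), of the HoxB genes with reads in both libraries, ordered by paralog number, with 95% counting intervals as bars; the solid line is a ratio of 1 and the dashed lines mark 2-fold. Ratios run from 0.659 at Hoxb2 to 3.02 at Hoxb8 and 3.70 at Hoxb9, where reads were few and the interval is wide.

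Of the HoxB neighbours on the list, those with a mean of at least 1 TPM were within 2-fold. They were Atp5g1 at 102 TPM in the Trp53 KO library and 79.7 TPM in the WT library, Snx11 at 6.12 and 7.62 TPM, and Cbx1, a heterochromatin protein, at 63.6 and 52.1 TPM. Skap1, Ttll6 and Calcoco2 lie nearer to the cluster than these. They were listed at 0 in the Trp53 KO library and at 0.225, 0.283 and 0.145 TPM in the WT library. Against a floor of 3 reads in the Trp53 KO library, Skap1 was 5.94-fold and Ttll6 6.44-fold lower. By the counting interval their ratios were at most 0.213 and 0.197. Over the 942 genes of chromosome 11 without HoxB, the median difference was -0.17, with 7.64% higher and 13.4% lower.

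HoxC and HoxA were almost silent in both libraries, and the few reads differed in direction. Hoxc4, at the 3' end of HoxC, was 0.0440 TPM from 2 reads in the Trp53 KO library and 1.13 TPM from 172 reads in the WT library, a ratio of 0.0391 with an interval of 0.00470 to 0.144. At its WT level the Trp53 KO library would have given 51.1 reads. Hoxc5 had 0 reads in the Trp53 KO library and 1 read in the WT library, and the other 7 HoxC genes, Hoxc6 and Hoxc8 to Hoxc13, were listed at 0 in both. Calcoco1, a HoxC neighbour and autophagy receptor, was the 1 measured neighbour at least 2-fold lower there, at 4.67 TPM in the Trp53 KO library and 19.3 TPM in the WT library.

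In HoxA, Hoxa5 and Hoxa3 had reads in the Trp53 KO library only, although it was the shallower one. Hoxa5 acts in lung and gut and is known in human breast cancer cells as an activator of the p53 gene. It was 0.572 TPM from 19 reads in the Trp53 KO library and was listed at 0 in the WT library. Its level was 21.3-fold higher against a floor of 3 reads, and at least 15.7-fold higher by the counting interval. Hoxa3, needed for the thymus and parathyroid, was 0.213 TPM from 10 reads in the Trp53 KO library and at 0 in the WT library. Its level was 11.2-fold higher against this floor, and at least 7.54-fold higher by the interval. Hoxa7 had 1 read in each library, and Hoxa2, Hoxa4 and Hoxa6 were listed at 0 in both. All HoxA levels were below 1 TPM. Beside the cluster, Skap2, an adaptor protein, was 23.3 TPM in the Trp53 KO library and 32.9 TPM in the WT library, and Hibadh, an enzyme of valine breakdown, was 57.99 and 95.9 TPM. Over 518 genes of chromosome 6 without HoxA, 5.79% were higher and 19.9% were lower, and over 437 genes of chromosome 15 without HoxC, 8.47% were higher and 15.3% were lower.

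The 5' genes that mark segments of the reproductive tract were not detected above a few reads in either library. Hoxa9, the oviduct member, was listed at 0 in both, where 3 reads would have been 0.0526 TPM in the Trp53 KO library and 0.0156 TPM in the WT library. Hoxa10 had 0 reads in the Trp53 KO library and 1 read in the WT library, and Hoxa11 and Hoxa13 were at 0 in both. Over all 12 genes of paralog groups 10 to 13, there were 0 reads in the Trp53 KO library and 2 reads in the WT library.

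Without a pseudocount, a gene could also be called where its counting interval lay wholly beyond 2-fold, among genes with at least 10 reads in both libraries together. By this rule 16 Hox genes could be called, of which Hoxa3, Hoxa5, Hoxb7 and Hoxb8 were higher and Hoxc4, Hoxd3, Hoxd4, Hoxd8 and Hoxd9 were lower. Over all 13834 such genes, 8.04% were higher and 19.6% were lower. Of the 9 called, 7 had fewer than 10 reads in 1 library and reached the minimum through the other, so that their number is a description. Hoxb7 and Hoxb8 were the 2 with many reads in both.

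By paralog group, the sums of groups 5 to 7 were higher in the Trp53 KO library, and the group 8 sum was nearly level although its make-up differed. Paralog group 7, which is Hoxb7 apart from a trace of Hoxa7, was 143 TPM in the Trp53 KO library and 59.9 TPM in the WT library, and group 6, where Hoxb6 had all the reads, was 67.7 and 35.4 TPM. Group 5, mostly Hoxb5, was 7.20 TPM in the Trp53 KO library and 3.23 TPM in the WT library. Paralog group 8 summed to 28.7 TPM in the Trp53 KO library and 32.2 TPM in the WT library, although its members differed: the whole of it was Hoxb8 in the Trp53 KO library, while Hoxd8 made 70.4% of it in the WT library. Group 4 was 26.9 TPM in the Trp53 KO library, nearly all Hoxb4, and 32.0 TPM in the WT library, where Hoxd4 and Hoxc4 added to Hoxb4. Group 9 was 0.242 TPM in the Trp53 KO library, from Hoxb9, and 1.56 TPM in the WT library, mostly from Hoxd9. Groups 2 and 3, led by Hoxb2 and Hoxb3, were 22.7 and 5.02 TPM in the Trp53 KO library, against 34.4 and 5.88 TPM in the WT library.

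**Figure D4:**
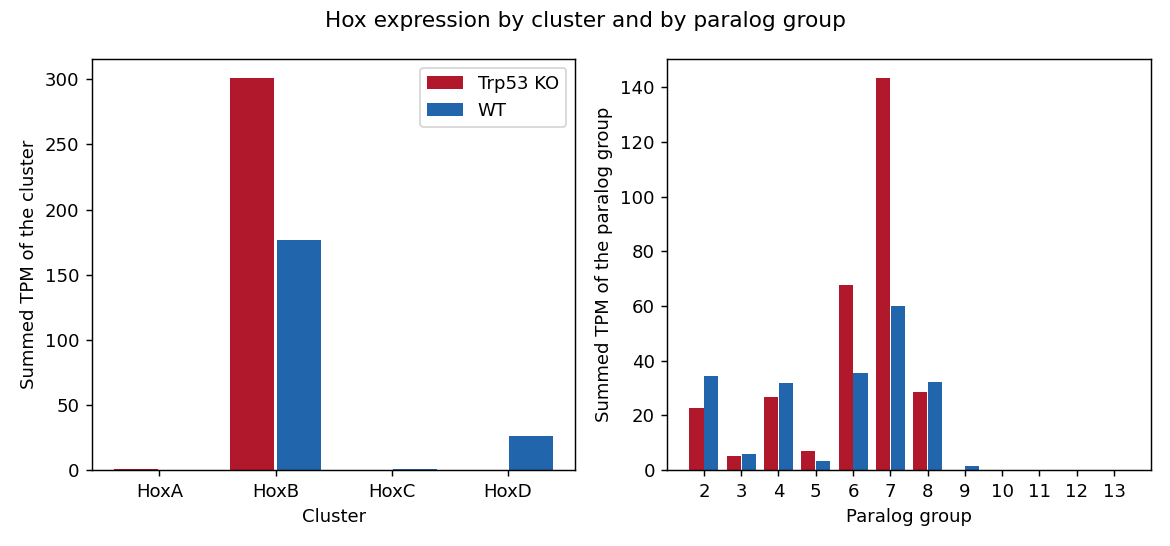
Summed TPM of the Hox genes by cluster (left) and by paralog group from 2 to 13 (right), with a bar for the Trp53 KO library and a bar for the WT library. HoxB stands at 301 TPM in the Trp53 KO library and 177 TPM in the WT library, the HoxD bar is present in the WT library only, and paralog group 7 is the highest in both.

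Among the cofactors that bind DNA with Hox proteins, Meis2 was higher and Pknox2 and Meis3 were lower in the Trp53 KO library. Of 9 cofactor genes 1 was at least 2-fold higher and 2 were at least 2-fold lower, with a median difference of 0.05 on the log2(TPM + 1) scale, against 8.35% higher, 15.3% lower and a median of -0.17 over all genes. Pknox2 and Meis3 reached the mean of 1 TPM through the WT library alone, so their calls follow from their levels there. Meis2 was the higher one, at 46.0 TPM in the Trp53 KO library and 19.97 TPM in the WT library, a ratio of 2.30 (2.21 to 2.40). Pknox2 was listed at 0 in the Trp53 KO library and at 10.1 TPM from 2467 reads in the WT library. It was 244-fold lower against a floor of 3 reads, and its ratio was at most 0.00504 by the counting interval. Meis3 was 0.252 TPM in the Trp53 KO library and 4.10 TPM in the WT library, a ratio of 0.0616 (0.0284 to 0.120).

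The remaining cofactors stayed within 2-fold on this scale. Pbx2, a widely expressed Pbx gene, was 16.1 TPM in the Trp53 KO library and 19.0 TPM in the WT library. Pbx3 was 15.04 TPM in the Trp53 KO library and 8.83 TPM in the WT library. Pbx4 was 1.81 and 3.95 TPM in the same order, a ratio of 0.458 (0.334 to 0.617) whose interval was not wholly beyond 2-fold. Meis1 was 5.25 TPM in the Trp53 KO library and 5.02 TPM in the WT library. Pknox1 was 6.01 TPM in the Trp53 KO library and 2.59 TPM in the WT library, a ratio of 2.32 (2.07 to 2.60) whose interval lay wholly beyond 2-fold.

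**Figure D5:**
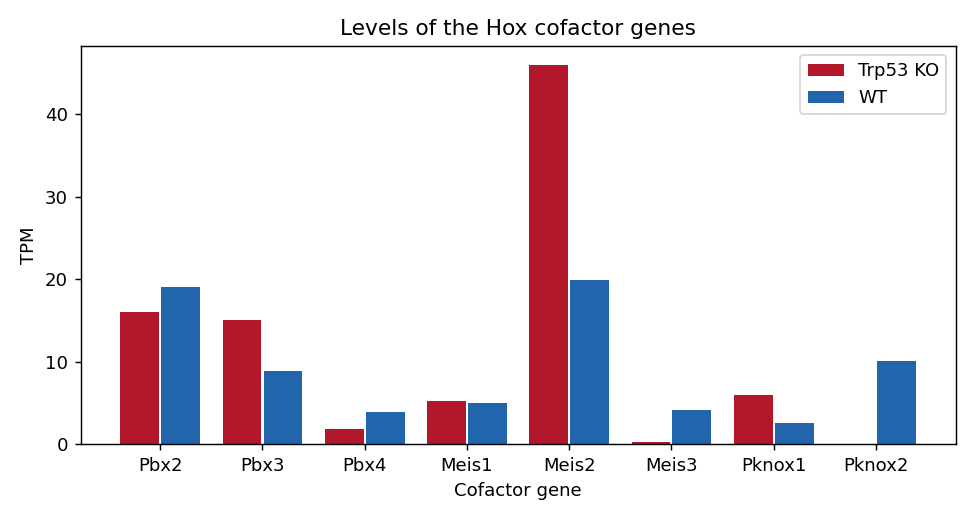
Level (TPM) of 8 Hox cofactor genes, with a bar for the Trp53 KO library and a bar for the WT library. Meis2 is the highest at 46.0 TPM in the Trp53 KO library, and Pknox2 has a bar in the WT library only, at 10.1 TPM.

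Polycomb and trithorax genes encode the chromatin proteins that hold Hox clusters silent or active. Of 24 measured, 3 were at least 2-fold higher and 1 was at least 2-fold lower, with a median difference of 0.02, against 8.35% higher, 15.3% lower and a median of -0.17 over all genes. Psip1, a chromatin protein that joins MLL complexes, was 69.3 TPM in the Trp53 KO library and 22.6 TPM in the WT library. Phc2, a subunit of Polycomb repressive complex 1, was 101 and 32.5 TPM, and Cbx7, a reader of methylated histone H3 in the same complex, was 6.59 and 2.37 TPM. Cbx6, a further Cbx subunit, was lower, at 66.1 TPM in the Trp53 KO library and 145 TPM in the WT library. Psip1 and Phc2 lie on chromosome 4, and Cbx7 and Cbx6, which differed in opposite directions, lie on chromosome 15.

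The last lists held 24 non-homeobox neighbours of the clusters and 13 related homeobox genes. Of 19 measured neighbours none was at least 2-fold higher, and Chn1 and Calcoco1 were lower, against 8.35% and 15.3% over all genes. Chn1 reached the mean of 1 TPM through the WT library alone, so its call follows from its level there. By the counting interval 5 of 24 neighbours were lower, Chn1, Calcoco1, Jazf1, Skap1 and Ttll6, against 19.6% of all genes. All of these but Calcoco1 had at most 9 reads in the Trp53 KO library and reached the minimum of 10 reads through the WT library, so their number is a description. None of the related homeobox genes, ParaHox genes among them, reached a mean of 1 TPM, and 7 of them were listed at 0 in both libraries. The highest was Meox1, a mesodermal homeobox gene, at 1.01 TPM in the Trp53 KO library and 0.460 TPM in the WT library. None of the opposite-strand and long noncoding transcripts of the clusters that were looked for by name was among the listed symbols, so they could not be analysed.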

How the data were processed

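RNA from 2 libraries of mouse fallopian tube epithelial organoids was compared, 1 Trp53 KO and 1 WT, grouped by the genotype labels. Per the labels' protocols, total RNA was made into directional libraries and sequenced as paired reads. Per the submitters' processing notes, reads were placed on GRCm39. Nothing in the sources used here names the aligner, counting tool, strand setting or annotation. Deposited by the authors were TPM values of 25668 gene symbols in each library.

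Because TPM is free of depth, reads were recovered as TPM times gene length over the value of 1 read, which at 1000 bases was 0.0565 TPM in the Trp53 KO library and 0.0168 TPM in the WT library. Length was the union of exons of protein-coding transcripts in GENCODE M21, which belongs to an earlier build and was used for length, chromosome and gene type only. It was chosen after seeing that, of 10316 genes with more than 50 reads in both libraries, it gave numbers within 0.02 of whole for 77.5%, against 0.16% by chance. Of the 20 Hox genes above 0, 19 came out whole, and Hoxa7 gave 0.973 reads and was taken as 1. Intervals are exact Clopper-Pearson at 95%. Folds against a library at 0 were taken against a floor of 3 reads, which leaves out the counting error of the other library. Calls needed a mean TPM of at least 1 and 2-fold on log2(TPM + 1). No test between genotypes was possible. A Hox gene and a cofactor are not reported here by name, but count in the sums and totals. Named genes are the Hox genes at 1 TPM or more in either library, list members at least 2-fold different, all cofactors, Trp53 and cell type markers; other Hox genes above 0 and other examples were named after their values were seen. The members and lists were chosen with earlier results of these data known. Alternatives were other thresholds, pseudocounts, filters and scalings, and a rule on counting intervals added after the data were seen. Promoter windows are from RefSeq (GRCm38.p6). Calls, read recovery and intervals were tested on simulated data. These were made with the same gene lengths, so they cannot show whether the lengths match those behind the deposited values. Python 3.11.15, pandas, NumPy and SciPy were used.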

Additional observations from a re-analysis of the deposited data

How the results depend on the processing

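No paired analysis was possible because each group has 1 library. Counts are given as higher then lower, and most counts that changed little are left out. At a 4-fold threshold Hox genes gave 0 higher, cofactors 0 higher, Polycomb and trithorax genes 0 and 0, neighbours 1 lower, and all genes 267 and 661. With the counting interval, chosen after seeing the data, Hox genes gave 4 and 5, cofactors 2 higher, neighbours 5 lower, and all genes 2707 lower. Rescaling by the median ratio gave 4 higher Hox genes, 2 higher cofactors, 1 higher neighbour and 0 lower Polycomb and trithorax genes. Quantile normalization gave 4 higher Hox genes, 2 higher cofactors, 5 higher Polycomb and trithorax genes and 1 higher neighbour. A pseudocount of 0.1 gave 3 higher Hox genes, 2 higher and 3 lower cofactors, and 2 lower Polycomb and trithorax genes. A pseudocount of 5 gave 1 lower cofactor and 563 and 930 of all genes. A mean TPM of at least 5 gave 1 lower cofactor, 1 lower neighbour and 1091 lower genes. With no filter 4 Hox genes were lower. Without mitochondrial and the 100 highest genes 3 Hox genes were lower and 2 cofactors higher.

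The median difference of the measured Hox genes, 0.38, was -0.10 at a mean TPM of at least 5, 0 with no filter, 0.22 with a pseudocount of 5, 0.60 after quantile normalization, 0.53 after rescaling and -0.090 without the highest genes, so it has no stable sign. The log2 ratio of the HoxB sum, 0.77, was 0.87 after quantile normalization and 0.94 after rescaling, and after quantile normalization that of the HoxA sum, 4.37, was 6.24 and that of the HoxC sum, -4.68, was -2.80. The cause of these shifts was not tested, except that a filter or threshold changes which genes enter. Hoxb7 and Hoxb8 kept their sign under every alternative that gave a value, though only those that rescale the values could have changed it. Hoxd8, at 0 in the Trp53 KO library, could not change sign under any of them. The shallower Trp53 KO library limits what could be seen of low Hox genes.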
